A study of Mus musculus with 25 samples.

Results

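This account describes 5 arrays with a strong adipocyte signature, called the fat-rich arrays below, and compares them with 13 tumor-titled arrays, called the non-squamous arrays, out of 25 arrays in all. The fat-rich arrays carry the titles Lgr5-creERT2/PIK3CA H1047R tumor 2, 6, 7, 8 and 9. They were chosen by measured values, as the arrays in which the albumin gene Alb exceeded 8 on the log2 scale. Fat content also entered the choice, with Adipoq, Lep and Plin1 as markers beside Alb. The non-squamous arrays carry the titles K8 tumor 1 to 8 and 10 and Lgr5 tumor 1, 3, 4 and 5. Alb was 10.30, 9.92, 10.15, 10.22 and 10.26 in Lgr5 tumors 2, 6, 7, 8 and 9, and the other 20 arrays lay between 5.21 and 5.89. The lowest array inside the threshold was Lgr5 tumor 6 at 9.92 and the highest outside it was Lgr5 tumor 5 at 5.89. The titles of these arrays are in doubt, because arrays titled tumor were richest in fat genes and poorest in epithelial genes, and arrays titled gland were not. Because the sets were grouped by measured expression, every difference between them below is a description and has no p-value.

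The study asked how mammary tumors that begin in different cells of the gland compare. Tamoxifen given at 7 to 8 weeks of age turned on PIK3CA H1047R, a cancer mutant of a PI3-kinase subunit, in cells expressing keratin 8 in the K8-creERT2 line or in cells expressing Lgr5 in the Lgr5-creERT2 line. Whole tumors were cryo-homogenized, and RNA was amplified from 100 ng of input for Affymetrix whole-transcript arrays. The titles give 10 K8 tumors, 10 Lgr5 tumors, and reference glands of creERT2 control mice without the PIK3CA allele in their genotype label, 3 of the Lgr5 line and 2 of the K8 line. The labels of the glands give the same tamoxifen age of 7 to 8 weeks and the same RNA input of 100 ng. The strain background is FVB/CD1 for K8-creERT2 mice and FVB/C57/BL6 for Lgr5-creERT2 mice, both mixed, so effects of line and strain cannot be told apart. All fat-rich arrays carry Lgr5 titles whereas the non-squamous arrays mix both lines, so differences from the 4 Lgr5-titled non-squamous arrays alone, written as within Lgr5 titles, are given for the main genes and for every list whose median they moved by over 1.5 times. The 2 tumor-titled arrays in neither set are K8 tumor 9 and Lgr5 tumor 10. Their means over 24 squamous genes were 9.60 and 9.89, against 6.80 to 8.30 in the non-squamous arrays. The non-squamous set was thus also grouped by measured tissue markers, which in part fixes its squamous values.

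The mammary gland is a tree of epithelial ducts embedded in a fat pad. White adipocytes of the pad store triglyceride in droplets coated by perilipin and secrete the hormones adiponectin and leptin, and brown or beige adipocytes burn fat through the uncoupling protein UCP1. The ducts have an inner luminal layer, with hormone-sensing and milk-producing cells marked by keratin 8, and an outer basal layer of contractile cells marked by keratin 5 and keratin 14. In a bulk sample, fewer cells of a type and less RNA per cell cannot be told apart.

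The median log2 value of an array was 6.34 to 6.43. Pearson correlations across the 19937 genes ran from 0.986 to 0.995 among the fat-rich arrays, from 0.968 to 0.996 among the non-squamous arrays, and from 0.921 to 0.969 between the sets. Among the non-squamous arrays, K8 tumor 7 and Lgr5 tumors 1 and 4 stood apart with high skeletal muscle and fat genes. Their means over 18 skeletal muscle genes were 10.18, 9.60 and 10.40, against 6.36 to 8.52 in the other 10 and 6.56 to 6.71 in the fat-rich arrays. Lgr5 tumor 4 also went against the name of its set, with a squamous mean of 8.30 where the other 12 lay between 6.80 and 7.38 and the gland-titled arrays between 8.73 and 10.31. The number of arrays limits the precision of every value.

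Pik3ca itself was 10.57 to 10.67 in the fat-rich arrays, 10.40 to 10.65 in the non-squamous arrays and 10.30 to 10.44 in the gland-titled arrays. The probes were not checked against the mutant transcript, so these values do not tell mutant from normal expression. Lgr5, the driver gene of the titled line, was 6.86, 6.60, 6.30, 6.75 and 7.07 in Lgr5 tumors 2, 6, 7, 8 and 9. In the non-squamous arrays it was 9.82 in Lgr5 tumor 1, 8.33 in Lgr5 tumor 3, 9.74 in Lgr5 tumor 4 and 5.88 in Lgr5 tumor 5, and the K8-titled arrays lay between 6.05 and 6.82 except for K8 tumor 7 at 8.69. The fat-rich arrays thus sat with the low Lgr5 arrays, and below the gland-titled arrays at 8.05 to 9.69.

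Across all 19937 genes, 695 (3.49%) were higher in the fat-rich arrays by at least 1 on the log2 scale with no overlap between the sets, and 767 (3.85%) were lower by the same rule. A gene that met this rule is called higher or lower from here on. With the 4 Lgr5-titled non-squamous arrays alone, 671 genes were higher and 813 lower, of which 614 and 670 were also called against all 13. The median difference over all genes was 0.0072, with 10440 positive and 9497 negative differences. Each gene list below is read against these shares and this median.

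**Figure D1:**
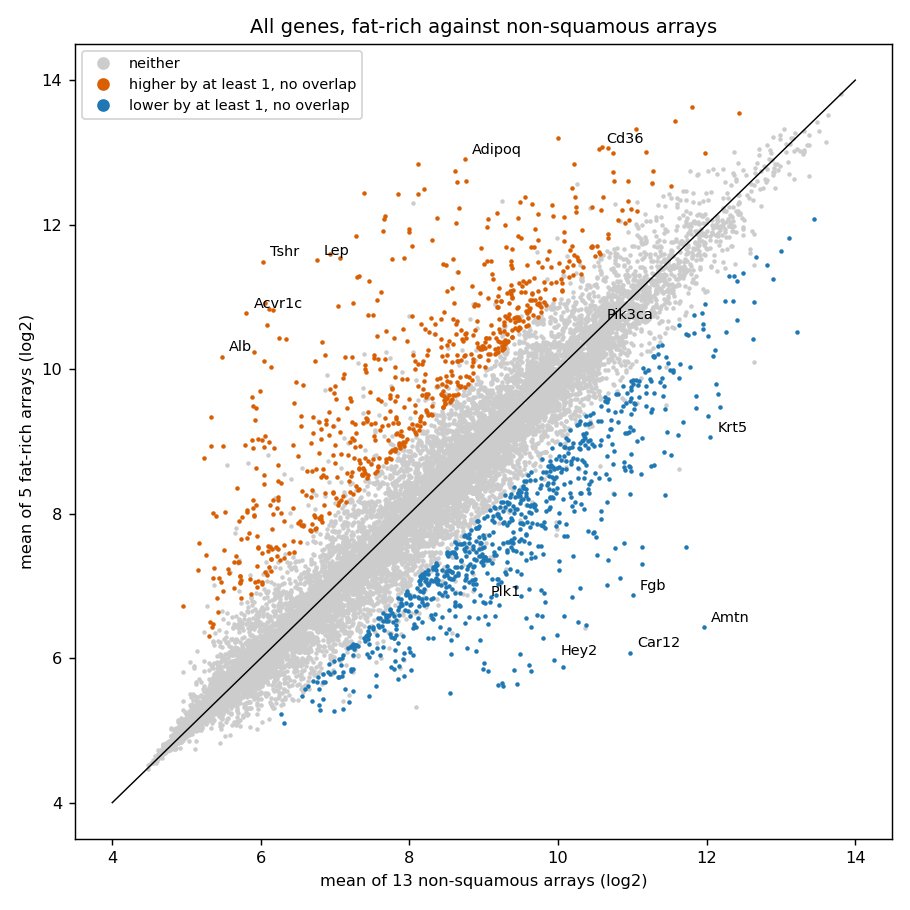
Mean log2 value of each of 19937 genes in the 13 non-squamous arrays (x axis) against the 5 fat-rich arrays (y axis), with the 695 higher and 767 lower genes coloured and some genes named. Alb and Tshr lie far above the diagonal, and Amtn and Car12 far below it.

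White adipocyte genes separated the sets completely: 17 of 17 measured list members were higher, with a median difference of 2.62. The choice of arrays by fat content in part fixed this separation, so it only describes the sets. Against the Lgr5-titled non-squamous arrays the median was 2.04. Adipoq, which encodes adiponectin, was 12.95, 12.92, 12.87, 12.86 and 12.92 in Lgr5 tumors 2, 6, 7, 8 and 9. The non-squamous arrays had a lowest value of 5.66, a median of 8.87 and a highest value of 11.76, in K8 tumor 7. The fat-rich arrays were nearly level with one another, with an SD of 0.04 (n = 5), while the non-squamous arrays spread with an SD of 1.94 (n = 13). The difference of means was 4.16, or 2.57 within Lgr5 titles, and the gland-titled arrays lay between 6.61 and 10.11.

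Plin1, which encodes the perilipin that coats the lipid droplet, was 12.92, 12.61, 12.63, 12.87 and 12.68 in the fat-rich arrays in the same order. It ran from 6.64 through a median of 8.72 to 11.45 in the non-squamous arrays and from 6.95 to 9.50 in the gland-titled arrays. The leptin gene Lep was 12.18, 11.14, 11.30, 11.20 and 11.72 in the fat-rich arrays, highest in tumors 2 and 9. The non-squamous arrays ran from 5.58 through 6.20 to 9.44 for Lep, and no array of either set crossed into the other. The differences were 4.12 for Plin1 and 4.75 for Lep, which is 17.4-fold and 27.0-fold, and 2.85 and 3.81 within Lgr5 titles. Aqp7, the channel through which adipocytes release glycerol, was higher by 4.57. Further members with differences over 3 were Rbp4 (3.91), which encodes a retinol carrier, the lipid droplet genes Cidec (3.84) and Plin4 (3.48), and the resistin gene Retn (3.20). The smallest difference of the list was that of Car3, a carbonic anhydrase of fat and muscle, at 1.83. Pparg and Cebpa, whose products drive adipocyte differentiation, were higher by 2.39 and 2.07.

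**Figure D2:**
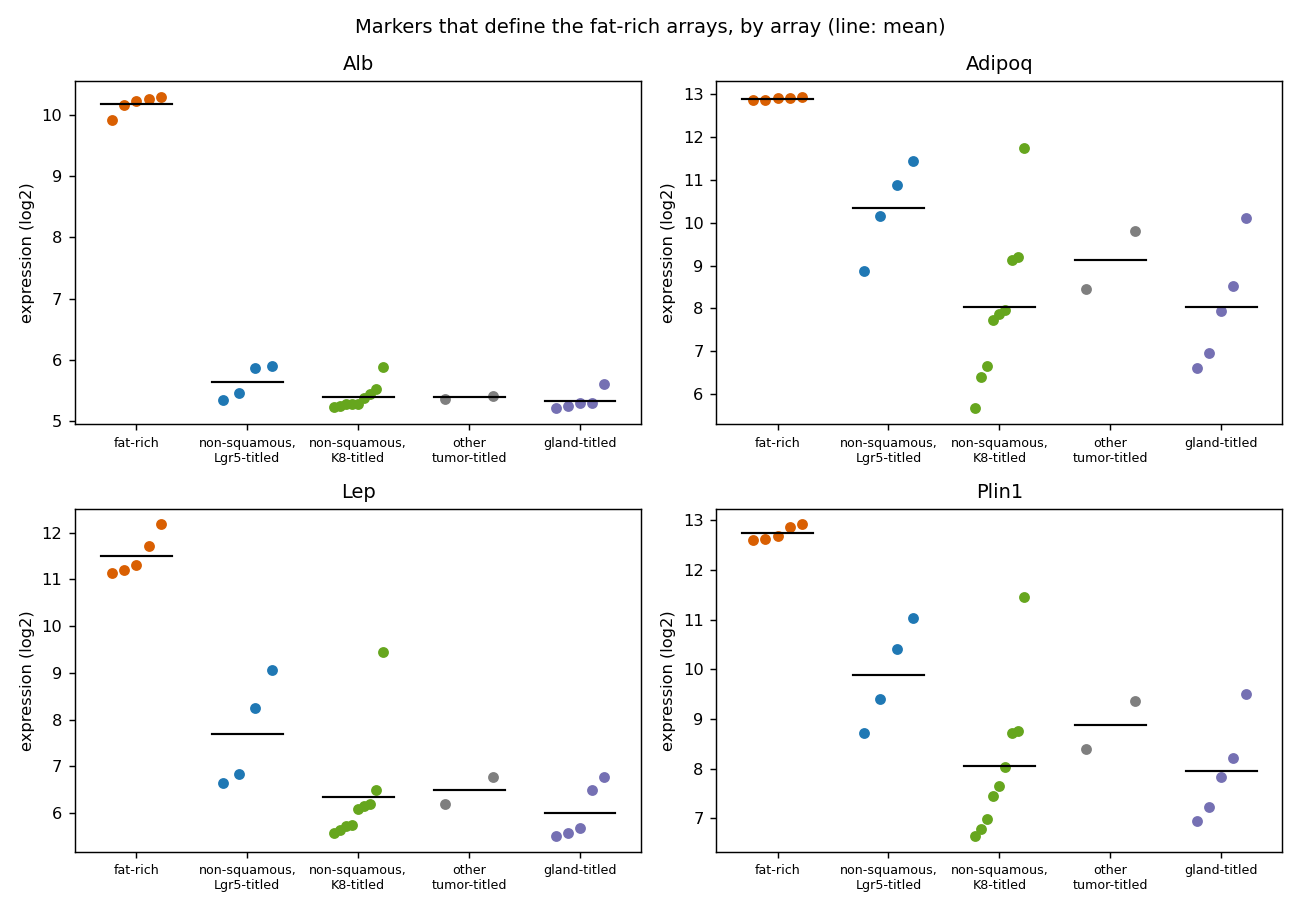
Log2 values of Alb, Adipoq, Lep and Plin1 by array, with 1 point per array and a line at the mean of each group of arrays. The fat-rich arrays form a tight group at the top for all 4 genes, and for Adipoq, Lep and Plin1, but not for Alb, the non-squamous and gland-titled arrays are spread below them.

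Because Lep is known as a target of the adipocyte factor C/EBP alpha, its promoter is shown from 250 bases before to 50 bases after the RefSeq start, at chr6:29059971-29060270 on the plus strand of GRCm38.p6. Capitals mark the match to TTGCNNAA, the C/EBP letters searched on both strands.
Lep: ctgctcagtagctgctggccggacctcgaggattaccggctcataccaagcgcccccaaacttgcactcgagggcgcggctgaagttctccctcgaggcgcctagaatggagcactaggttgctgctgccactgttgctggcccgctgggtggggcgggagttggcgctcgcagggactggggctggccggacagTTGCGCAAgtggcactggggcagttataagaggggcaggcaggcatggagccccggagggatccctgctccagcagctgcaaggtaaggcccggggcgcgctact
Of 16 RefSeq promoters of white adipocyte genes (11 genes matched), 5 held these letters (31.2%), against 10.8% of all 32851 promoters of this length. Matches of different letters were counted separately whether or not they overlapped, and a match is a description of the sequence and not a bound site.

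Outside the adipocyte list, the gene with the largest difference was Tshr, the thyrotropin receptor, also known in fat cells. Tshr was 11.64, 11.24, 11.21, 11.53 and 11.79 in the fat-rich arrays in the order of their numbers. The non-squamous arrays ran from 5.32 through 5.71 to 7.88, so the sets were separated by more than 3 on the log2 scale, and the means differed by 5.46 or 44.0-fold. The next differences were 5.05 for Tmem45b, a transmembrane protein gene, 4.96 for Acvr1c, a receptor for activin-type ligands, and 4.86 for the carboxylesterase gene Ces1f. Genes of carbohydrate and glyceride metabolism followed: the amylase gene Amy1 at 4.73, Pck1 at 4.72, whose enzyme feeds glycerol synthesis in fat, and the glycogen synthase gene Gys2 at 4.66. Trarg1, a regulator of insulin-responsive glucose transporter traffic, was higher by 4.45. Secreted products among the 15 largest differences were Timp4 (4.66), an inhibitor of matrix metalloproteases, and Orm1 (4.56), an acute-phase plasma protein. Timp4 shared the pattern of Lep within the fat-rich arrays, at 12.62 and 12.01 in tumors 2 and 9 and 11.01 to 11.20 in the other 3. The galactosidase-like gene Glb1l2 (4.53) and the galactosyltransferase gene B3galt2 (4.46) were also among the 15. Within Lgr5 titles the differences of the genes in this paragraph lay between 3.53 for B3galt2 and 4.91 for Tshr. Amy1 was 10.53 to 11.06 in the fat-rich arrays and 12.36 in K8 gland 1, while the other 4 gland-titled arrays lay between 5.46 and 6.16.

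Among genes that release and burn fatty acids 9 of 14 were higher, with a median difference of 1.27. Lipe, which encodes hormone-sensitive lipase, was 12.26 to 12.39 in the fat-rich arrays against 8.58 to 11.13, and its partner lipase gene Pnpla2 was 12.28 to 12.47 against 9.56 to 11.50. Mgll, for the lipase that completes triglyceride breakdown, was higher by 2.02. Hadhb, a subunit of the mitochondrial trifunctional enzyme of beta-oxidation, overlapped between the sets, at 10.94 and 10.76 in tumors 2 and 9 and 12.03 to 12.20 in tumors 6, 7 and 8. Of 18 fatty acid synthesis genes 6 were higher, among them Acss2 (2.94), Mlxipl (2.68), which encodes the carbohydrate-sensing factor ChREBP, and the phosphatidate phosphatase gene Lpin1 (2.56). The list median was 1.77, and the desaturase gene Fads2 was the 1 member called lower (-1.16). Cholesterol synthesis genes differed less: 4 of 15 were higher, with a median of 0.32, led by Insig1 (2.32), a sterol-sensing regulator, and Hmgcs1 (1.63), an early enzyme of the pathway.

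Alb chose the arrays, so its difference of 4.70 is given only as a description. The gene encodes serum albumin, the main secreted product of hepatocytes. Most other members of the hepatocyte list did not share its pattern: of 16 listed, Alb and Cyp2e1 were higher, Fgb was lower and 13 were neither. The list median was 0.05. The liver transport protein gene Ttr was 5.38 to 5.46 in the fat-rich and 5.38 to 5.70 in the non-squamous arrays, and Apoa1 was 6.01 to 6.27 against 5.92 to 6.51. Cyp2e1, an ethanol-oxidizing cytochrome, was 12.42 to 12.72 in the fat-rich arrays and 5.89 to 11.30 in the non-squamous arrays, a difference of 3.95 that was 2.63 within Lgr5 titles. Serpina1c, an antitrypsin gene, differed by 0.19. The fibrinogen chain gene Fgb went the other way, at 6.35 to 7.26 against 8.34 to 12.61.

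Epithelial genes were lower in the fat-rich arrays: 17 of 18 were called lower, and the median was -1.62 (-1.61 within Lgr5 titles). Krt8, the luminal keratin whose promoter drives Cre in the K8 line, was 11.49, 11.69, 11.90, 11.24 and 11.81 in Lgr5 tumors 2, 6, 7, 8 and 9. The non-squamous arrays ran from 12.80 through 12.98 to 13.23 and the gland-titled arrays from 12.92 to 13.12, so every fat-rich array lay below every array of both kinds. The largest differences of the list were -1.89 for Esrp1, an epithelial splicing factor, -1.85 for Grhl2, a factor that maintains epithelial identity, -1.85 for the tight junction gene Cldn7 and -1.82 for Krt7. Ehf was the member that was not called. Over the list, the array means were 8.90 to 9.71 in the fat-rich set, 10.64 to 11.06 in the non-squamous set and 10.96 to 11.33 in the gland-titled arrays.

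Hormone-sensing luminal genes split, with a median of -0.73 that was -0.28 within Lgr5 titles. Of 9 measured, 3 were lower: Cited1 (-1.57), a coactivator of estrogen receptor signalling, Gata3 (-1.55) and Foxa1 (-1.41), both luminal transcription factors. Esr1, the estrogen receptor gene, was 9.46 to 9.81 in the fat-rich arrays and 8.90 to 9.66 in the non-squamous arrays, with overlap and a difference of 0.32. Within Lgr5 titles the difference was 0.58 and the arrays did not overlap, since those 4 reached at most 9.24. Gland-titled arrays had Esr1 at 7.27 to 8.22, below both sets. K8 tumor 9 and Lgr5 tumor 10, left out of both sets, were also below them, at 7.265 and 7.713. The progesterone receptor gene Pgr was 6.67, 6.80, 8.86, 8.02 and 7.52 in the fat-rich arrays and 8.66 to 10.16 in the non-squamous arrays, where tumor 7 overlapped. Of 15 milk and alveolar genes 7 were lower and the median was -1.24. Muc1, a luminal surface mucin, was lower by 1.98, and the casein gene Csn1s1 overlapped because it ranged from 5.52 in tumor 2 to 12.46 in tumor 6.

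Of the basal and myoepithelial genes 10 of 16 were lower, with a median of -1.70 (-1.59 within Lgr5 titles). Krt5 was 9.16, 8.91, 9.04, 8.38 and 9.81 in the fat-rich arrays in the order of their numbers. It ran from 11.56 through 12.12 to 12.34 in the non-squamous arrays, a gap with no overlap and a difference of -2.99 (-2.91 within Lgr5 titles), and from 11.19 to 11.75 in the gland-titled arrays. Cnn1, a contractile protein of myoepithelium, differed by -2.71 and Lamb3, a chain of the basement membrane laminin, by -2.38. Gland-titled arrays were low in Cnn1 as well, at 6.61 to 9.49, against 9.05 to 10.09 in the fat-rich arrays. Among 24 squamous genes 4 were lower, with a median of -0.50 (-0.87 within Lgr5 titles), and those 4 are expressed in basal or suprabasal cells: the desmosomal cadherin gene Dsc3 (-3.80), Sfn (-2.84), Calml3 (-2.13) and the plakin gene Ppl (-1.02). Of the 24 squamous genes 22 had a negative difference. The cornified envelope gene Sprr1a differed by -2.205 with overlap between the sets, while Lor (0.03), Krt1 (-0.04) and Tgm3 (-0.04) had differences near 0.

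The largest difference toward lower values was that of Amtn, which encodes amelotin, a secreted protein of the enamel organ. Amtn was 5.32, 5.97, 8.44, 7.12 and 5.28 in Lgr5 tumors 2, 6, 7, 8 and 9. The non-squamous arrays had it at 9.99, 11.90 and 12.68 (lowest, median, highest), so no array overlapped, and the means differed by -5.54 (-4.93 within Lgr5 titles). Car12, a membrane carbonic anhydrase, was 5.96 to 6.35 in the fat-rich arrays and 10.57 to 11.71 in the non-squamous arrays, a difference of -4.89 (-5.08 within Lgr5 titles). Gland-titled arrays were as high for Car12, at 10.38 to 11.92. Then came Cdhr1 (-4.18), a cadherin gene, Pcp4 (-3.91), a calmodulin-binding peptide, and Fmod (-3.83), a collagen-binding proteoglycan. Casq2 (-3.82), the cardiac form of calsequestrin, and Actg2 (-3.65), the smooth muscle gamma actin gene, belong to contractile cells. Igfbp2 (-3.77) binds insulin-like growth factors, Cck (-3.72) encodes the peptide hormone cholecystokinin, and Mia (-3.66) encodes a small secreted protein. The lipase gene Lipm (-3.70) and the cystatin-domain gene Cstdc2 (-3.64) completed the list. For Casq2, Actg2, Pcp4 and Fmod the gland-titled arrays, at most 8.55, overlapped the fat-rich arrays and lay below every non-squamous array.

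Of 25 mitosis genes 11 were called lower, all 25 had a negative difference, and the median was -1.44, which became -0.97 within Lgr5 titles. Plk1, a kinase that drives entry into and passage through mitosis, was 6.30, 6.58, 7.62, 6.10 and 7.30 in Lgr5 tumors 2, 6, 7, 8 and 9. The non-squamous arrays ran from 8.07 through 9.09 to 9.56 and the gland-titled arrays from 9.59 to 10.22, so the 3 kinds of array followed one another without overlap. The cyclin genes Ccna2 and Ccnb2 differed by -2.13 and -2.06, and the spindle checkpoint kinase gene Bub1 by -1.97. Within the fat-rich arrays, tumors 7 and 9 were higher than the other 3 for all 4 of these genes, as in Ccna2 at 9.16 and 9.50 against 6.88 to 8.24. Of 25 DNA replication genes 7 were lower, with a median of -0.80 (-0.50 within Lgr5 titles), among them the ribonucleotide reductase gene Rrm2 (-1.88), the helicase subunit gene Mcm6 (-1.51), Ccne2 (-1.36) and the chromatin assembly gene Chaf1b (-1.27). Ribosome biogenesis genes had no member called of 17 and a median of -0.21 (-0.11 within Lgr5 titles).

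Promoters of these cell cycle genes are shown because every measured gene of both lists had a negative difference and many carry known letters. They were picked among genes with only 1 promoter that held a match, so they do not represent the lists. The Bub1 promoter, which held CCAAT but not TTTGAA, is not shown. The RefSeq starts are on GRCm38.p6, with Plk1 at chr7:122159185-122159484 (plus strand), Ccnb2 at chr9:70421505-70421804 (minus strand) and Mcm6 at chr1:128359656-128359955 (minus strand). In Plk1 and Ccnb2, capitals mark TTTGAA, the core of the cell cycle homology region, and CCAAT, the box bound by NF-Y. In Mcm6 they mark TTTGGCGC, 1 of the E2F sequences searched with TTTCCCGC.
Plk1: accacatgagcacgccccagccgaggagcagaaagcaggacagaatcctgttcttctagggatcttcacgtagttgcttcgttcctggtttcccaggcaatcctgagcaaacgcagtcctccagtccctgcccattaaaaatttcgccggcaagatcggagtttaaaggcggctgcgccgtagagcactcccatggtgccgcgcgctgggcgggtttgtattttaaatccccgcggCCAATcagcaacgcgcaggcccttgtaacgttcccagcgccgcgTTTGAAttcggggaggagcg
Ccnb2: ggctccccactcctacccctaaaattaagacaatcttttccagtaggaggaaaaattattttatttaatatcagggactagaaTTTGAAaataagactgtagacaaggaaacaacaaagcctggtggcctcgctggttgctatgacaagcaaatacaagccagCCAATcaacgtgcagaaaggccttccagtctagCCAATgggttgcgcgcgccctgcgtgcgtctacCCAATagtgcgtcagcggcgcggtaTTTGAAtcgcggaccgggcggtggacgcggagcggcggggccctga
Mcm6: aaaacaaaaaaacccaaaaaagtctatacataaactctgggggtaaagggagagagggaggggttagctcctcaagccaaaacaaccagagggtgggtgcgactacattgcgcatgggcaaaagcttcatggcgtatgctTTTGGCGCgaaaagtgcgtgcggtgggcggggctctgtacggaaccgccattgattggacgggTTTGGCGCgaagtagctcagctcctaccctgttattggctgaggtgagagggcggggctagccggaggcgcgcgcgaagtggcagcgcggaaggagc
On either strand, TTTGAA occurred in 16 of 21 mitosis promoters (76.2%) and in 17.9% of all promoters, and CCAAT occurred in 19 of 21 (90.5%) against 37.4%. The E2F letters occurred in 8 of 24 DNA replication promoters (33.3%), in 0 of 21 mitosis promoters and in 1.56% of all promoters. The 21 mitosis promoters belong to 20 genes and the 24 replication promoters to 21 genes, so some promoters share a gene.

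**Figure D3:**
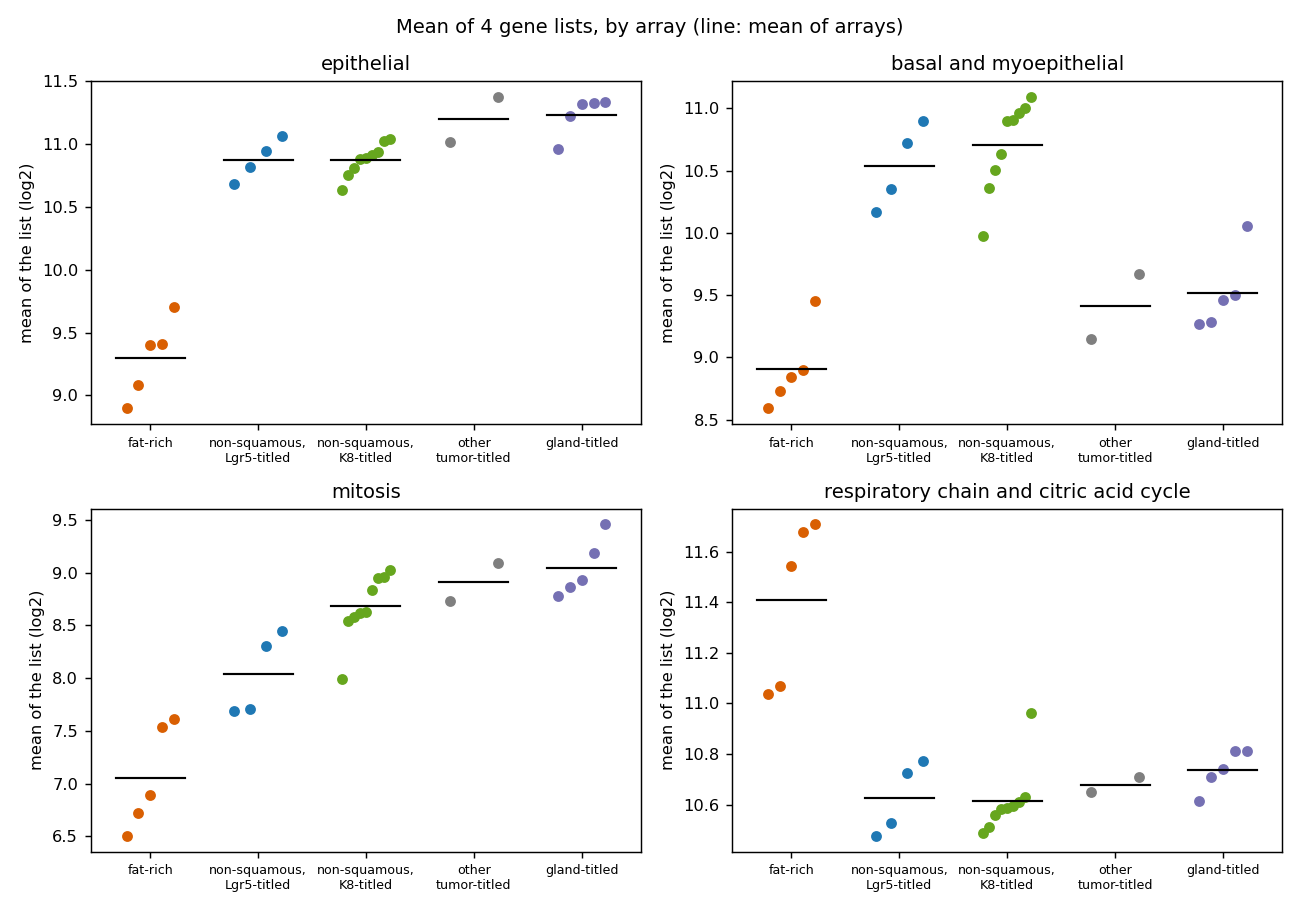
Mean log2 value over the measured genes of 4 lists (epithelial, basal and myoepithelial, mitosis, respiratory chain and citric acid cycle), with 1 point per array and a line at the mean of each group of arrays. The fat-rich arrays lie below every non-squamous array in the first 3 lists, with mitosis means of 6.50 to 7.61 against 7.69 to 9.02, and above every one in the last.

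All 16 respiratory chain and citric acid cycle genes had a positive difference with a median of 0.80, and 3 were called: Idh3a (1.24), an enzyme of the citric acid cycle, and the complex I genes Ndufv1 (1.23) and Ndufs1 (1.16). In each of these the fat-rich arrays 6, 7 and 8 were higher than 2 and 9, as in Ndufs1 at 10.84, 10.72 and 10.93 against 10.14 and 10.09. Glycolysis genes went both ways, with a median of 0.17 (0.10 within Lgr5 titles). Bnip3, a mitophagy receptor gene, and Pfkfb3, for an activator of glycolysis, were higher by 2.70 and 2.40, and Slc2a1, which encodes the glucose transporter GLUT1, was lower by 1.51. Slc2a4, which encodes the insulin-responsive transporter GLUT4, was higher by 1.97.

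PI3-kinase and insulin signalling genes had a median of 0.35, and 2 of 20 were called, both higher: Igf1 (1.68, or 1.08 within Lgr5 titles), a growth factor that stroma and fat secrete, and Akt2 (1.13), the AKT kinase that prevails in insulin-responsive tissue. Akt1 differed by -0.48 and Pik3r1, the main regulatory subunit gene, by -0.64. The insulin receptor gene Insr was 10.56 to 10.80 in the fat-rich arrays and 9.52 to 9.99 in the non-squamous arrays, which did not overlap but fell short of a difference of 1. In the Wnt list 3 of 13 were lower, with a median of -0.47 that was -0.06 against the K8-titled arrays alone: Sfrp1 (-2.54), a secreted Wnt antagonist, Rnf43 (-1.63), which removes Wnt receptors, and the stem cell receptor gene Lgr6 (-1.58). Axin2, a common Wnt target, had a difference of 0.82 and was not called. In the Notch list 4 of 12 were lower, with a median of -0.83, and all 4 are known Notch targets: Hey2 (-3.97), Hey1 (-2.40), Nrarp (-1.78) and Hes1 (-1.38). The receptor genes Notch1 and Notch2 differed by -0.93 and 0.21.

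Of 23 fibroblast and matrix genes 4 were higher, Dpp4 (2.55), Pi16 (2.37), Dpt (2.25) and Pdgfra (1.02), while the list median was 0.23 (0.14 within Lgr5 titles) and the collagen genes Col1a1 and Col3a1 differed by -0.29 and 0.29. Dpp4 and Pi16 are known from interstitial fibroblasts around fat, and Dpt encodes a matrix protein. Endothelial genes had a median of 0.56 and 18 of 18 positive differences, with 3 called: Cldn5 (1.44), a junction protein, the angiopoietin receptor gene Tek (1.42) and the phosphatase gene Ptprb (1.17). Pericyte genes had no member called of 7 and a median of 0.64, which was 0.08 within Lgr5 titles. Lymphatic endothelial genes had no member called of 5 and a median of -0.26.

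Immune lists held few calls. Macrophage genes had a median of 0.05 (-0.18 within Lgr5 titles), with the scavenger receptor gene Cd163 higher (1.37) and the endotoxin coreceptor gene Cd14 lower (-1.28). Neutrophil genes had a median of -0.06 (-0.04 within Lgr5 titles) with Il1b lower (-1.39), and T cell genes (median 0.57, or 0.35 within Lgr5 titles), B cell genes (0.44) and interferon-response genes (-0.69) had none called. Mast cell genes had a median of 1.10 with none of 6 called. For the protease gene Cpa3, K8 tumor 7 reached 10.80 and overlapped the fat-rich arrays at 10.43 to 11.12. Skeletal muscle genes had a median of -1.17 (-1.82 within Lgr5 titles) and the myoglobin gene Mb was lower by 2.17. Atp2a1, the calcium pump of fast muscle, was 5.75 to 6.01 in the fat-rich arrays and 5.76 to 11.48 in the non-squamous arrays. Myl1, a myosin light chain gene, differed the other way, at 9.96 to 10.40 in the fat-rich arrays and at 5.05, 8.32 and 11.60 (lowest, median, highest) in the non-squamous arrays. Of 6 Schwann cell genes, with a median of 0.23 (0.08 within Lgr5 titles), 1 was lower, Sox10 (-1.77), which mammary epithelial cells are also known to express. Housekeeping genes had none of 9 called and a median of -0.18 (-0.06 within Lgr5 titles).

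**Figure D4:**
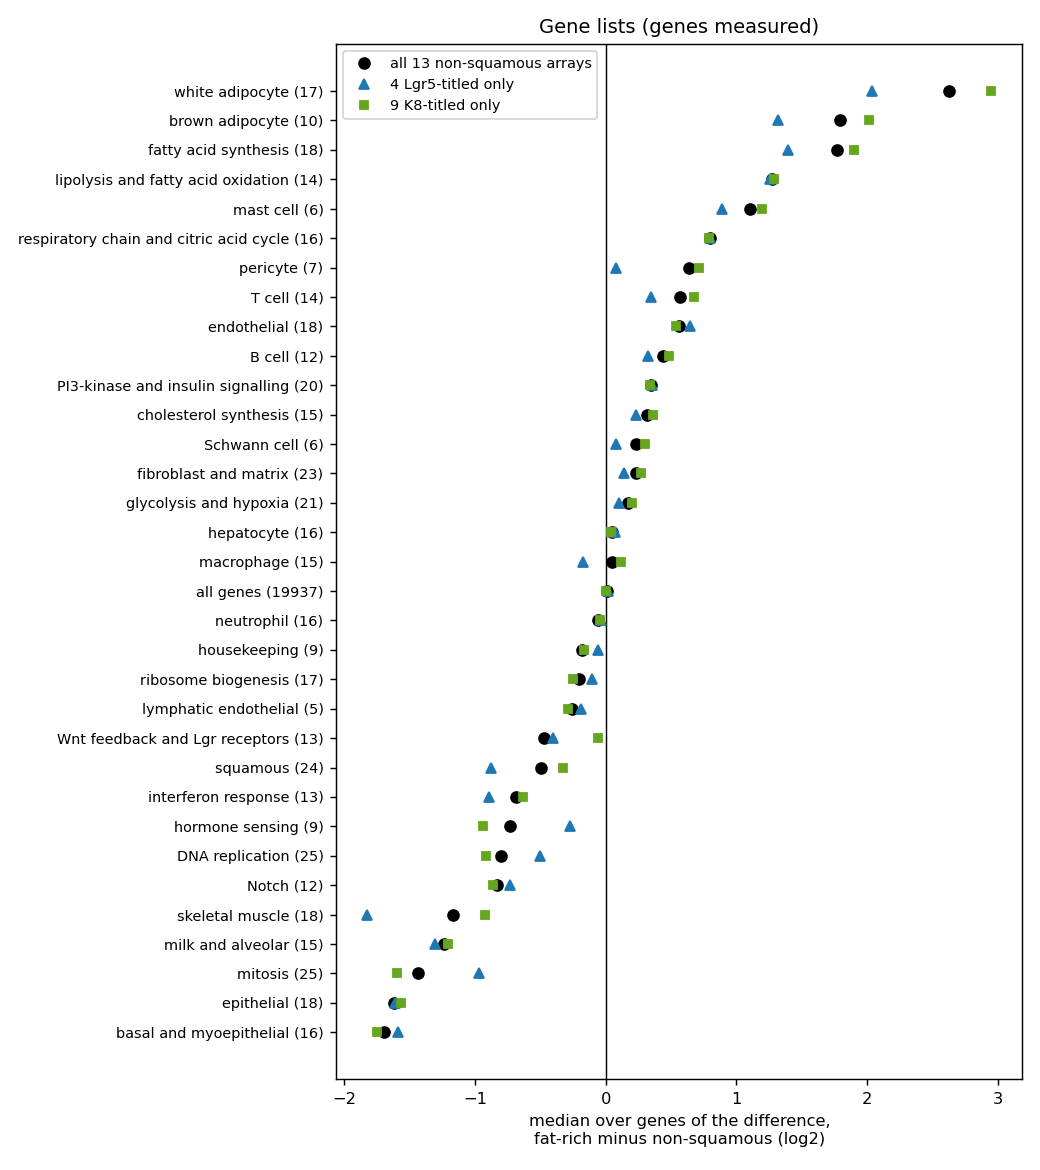
Median over genes of the difference, fat-rich minus non-squamous, on the log2 scale, for the 32 gene lists and for all genes. Circles are against all 13 non-squamous arrays, triangles against the 4 Lgr5-titled and squares against the 9 K8-titled arrays. By the circles, the white adipocyte list lies furthest to the right with a median of 2.62, and the basal, epithelial and mitosis lists lie furthest to the left.

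The 5 fat-rich arrays were alike except for a few groups of genes. Their SD was at least 1 for 63 of 19937 genes (0.316%) and at least 2 for 10, and the median SD over all genes was 0.09, against 0.11 among the non-squamous arrays. The genes named in this and the next paragraph as varying within the set were chosen after their values were seen, and they have no test. Brown adipocyte genes divided the set: Ucp1 was 12.47, 12.07 and 12.18 in tumors 6, 7 and 8, and 5.92 and 5.89 in tumors 2 and 9. Cidea, a lipid droplet gene of brown fat, followed with 11.33 to 11.64 in tumors 6, 7 and 8 and with 8.33 and 7.53 in tumors 2 and 9. Elovl3, a fatty acid elongase induced in brown fat, was 10.96, 9.93 and 10.14 against 5.01 and 5.06. None of the 10 brown adipocyte genes was called, and their median difference was 1.79. For Cox8b and Otop1, K8 tumor 7 at 12.49 and 8.52 lay above the lowest fat-rich arrays at 11.43 and 7.84. White adipocyte means showed no such split, at 12.43 to 12.57 in all 5 arrays. Ucp1 was also high in K8 tumor 7 (11.29), Lgr5 tumor 4 (10.00) and Lgr5 tumor 1 (9.49), and was 5.54 to 5.85 in the gland-titled arrays.

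Other genes divided the same arrays. H2-Eb1, a class II histocompatibility gene, was 11.28 and 11.19 in tumors 2 and 9, and 7.29 to 7.34 in tumors 6, 7 and 8. All 13 non-squamous arrays lay between 6.95 and 7.90 for it, so tumors 2 and 9 stood above them. Outside both sets, H2-Eb1 was also high in Lgr5 tumor 10 (10.23) and K8 gland 2 (9.49). It was 6.861 to 7.085 in K8 tumor 9 and the other gland-titled arrays. The transcript AI506816 was 9.19 and 10.08 in tumors 2 and 9 and 4.79 to 4.97 in the other 3, and among the non-squamous arrays it was 9.05 in K8 tumor 7, 9.38 in Lgr5 tumor 1 and 9.35 in Lgr5 tumor 4 and at most 4.98 elsewhere. Gdpd3, a phosphodiesterase gene, was 5.72 and 5.81 in tumors 2 and 9, against 10.42 to 10.66 in tumors 6, 7 and 8 and 8.78 to 10.91 in the non-squamous arrays. A different division came from lymphocyte genes: the B cell receptor gene Cd79a was 7.58, 8.39 and 8.45 in tumors 2, 7 and 8, and 5.26 and 5.41 in tumors 6 and 9. Ms4a1, which encodes the B cell antigen CD20, was 7.48 to 8.01 against 5.12 and 5.19, and the chemokine gene Cxcl13 was 10.63 to 10.75 against 8.60 and 8.12. Glycam1, expressed in lymph node vessels as well as in milk-producing cells, was 9.13, 10.87 and 10.94 against 5.75 and 5.74. The T cell gene Cd3e followed the same division, at 9.01 to 9.15 in tumors 2, 7 and 8 and 7.36 and 7.78 in tumors 6 and 9. Casein genes ordered the arrays in another way, with Csn2 at 12.54 in tumor 6, 10.57 in tumor 8, 9.73 in tumor 9, 8.97 in tumor 7 and 7.09 in tumor 2.

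**Figure D5:**
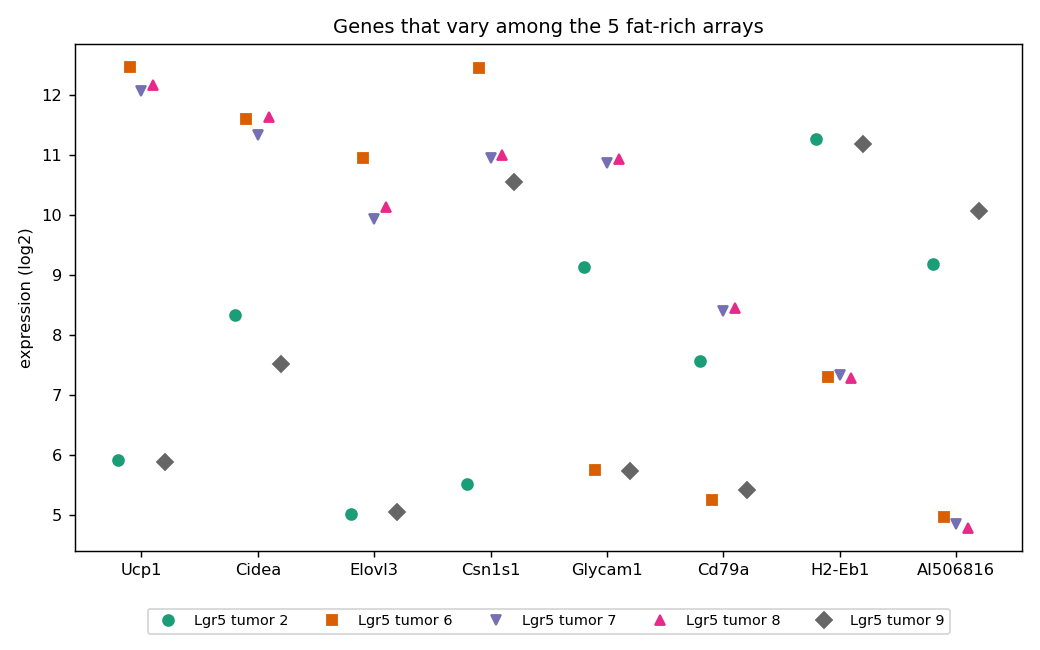
Log2 values of genes that vary among the 5 fat-rich arrays, 1 point per array. Ucp1 and other brown adipocyte genes are high in tumors 6, 7 and 8, H2-Eb1 is high in tumors 2 and 9, and Cd79a is high in tumors 2, 7 and 8.

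K8 tumor 7 had the most fat signal of the non-squamous arrays, with a white adipocyte mean of 11.29. On the log2 scale, distances were taken from the mean of the other non-squamous arrays to the fat-rich mean. Over the 17 adipocyte genes, K8 tumor 7 covered 35.7% to 83.4% of this distance, with a median of 60.4%. Over all 695 higher genes the median was 33.3%, with 144 genes at 50% or more and 83 genes under 10%. The 695 genes, and the 15 largest differences, were taken only where K8 tumor 7 lay below every fat-rich array. That choice of genes in part fixes these shares, and with K8 tumor 7 left out 766 genes were higher. Adipoq stood at 74.0% and Plin1 at 70.4%. Alb stood at 9.6%, a low value that the choice of arrays by Alb fixed. The other genes among the 15 largest differences ran from 27.4% for Acvr1c, a value below that of every adipocyte gene, to 69.9% for Tmem45b. Timp4 (30.8%), Glb1l2 (34.8%) and Tshr (35.9%) lay near the lower end and Orm1 (66.9%) and Trarg1 (62.9%) near the upper end.

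The 4 Lgr5-titled and 9 K8-titled non-squamous arrays allow a comparison of the lines, although the line titles share the doubt. The choice of sets bears on it, since measured values placed 5 of the 10 Lgr5-titled tumors, and no K8-titled tumor, in the fat-rich set. The Lgr5 side was thus cut by fat content, which limits the comparison most for fat genes such as Adipoq. With limma, 0 of 19937 genes passed an adjusted p of 0.05, and 2258 had an unadjusted p below 0.05. The smallest adjusted p by limma was 0.148, in 2 genes named after their values were seen: the stress-response gene Nupr1 (log2 difference 0.74 ± 0.10 SE, Lgr5 minus K8) and the receptor gene Adgrg3 (-0.50 ± 0.07). Adipoq differed by 2.30 ± 0.93 (limma adjusted p = 0.388) and Plk1 by -0.72 ± 0.19 (limma adjusted p = 0.243). Without Lgr5 tumor 5 the count was 37, without Lgr5 tumor 3 it was 2 and without K8 tumor 7 it was 20. The labels do not say whether tumors came from separate animals, so these p-values measure only the spread between samples, which may be technical.

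The gland-titled arrays, the controls by label, did not resemble the fat-rich arrays. Their white adipocyte means were 7.72 to 9.68, against 12.43 to 12.57, and their mitosis means were 8.77 to 9.46, against 6.50 to 7.61. They exceeded the fat-rich arrays in genes of stratified epithelium and inflammation: Sprr1a, a cornified envelope gene, was 11.56 to 13.16 against 6.67 to 10.33, and the neutrophil gene S100a8 was 8.54 to 10.91 against 5.83 to 6.08. Reference gland tissue contains a fat pad, so tissue markers and titles disagree for both kinds of array. The name fat-rich follows the 17 adipocyte genes, and no likeness to the gland-titled arrays is meant by it. No array was moved to another titled group here.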

How the data were processed

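The authors deposited 1 table of log2 values for 25 arrays and 34760 probe sets. The log base is not stated and was taken from the range of 4.13 to 13.9. The affy package is named, without a version, per the submitters' processing notes; the sources used here do not give how background was corrected and arrays normalized, and scanner files were not used. Columns were joined to samples by identifier. GEO's platform annotation named the probe sets: 21640 had 1 symbol, 1321 several and 11799 were unlisted. For 954 symbols with several probe sets the brightest over all arrays was kept, giving 19937 genes. No detection calls were used, so low values may be background.

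The sets, gene lists (32 lists, 517 genes, 483 measured) and rules were chosen with earlier results of these data known. Differences of set means are on the log2 scale, with folds as powers of 2. A gene was called when the difference was at least 1 in size and the sets did not overlap; no test was run between the sets. The line comparison used limma 3.58.1 in R 4.3.3 (lmFit, eBayes) with Benjamini-Hochberg adjustment over all genes, tested on simulated data. Named genes were the 4 markers and 5 genes of the design, the 15 highest and 15 lowest differences without predicted genes, RNA genes, clones and receptor segments, and the 4 largest differences of each list; others are named as list members or as chosen after their values were seen. Alternatives covered scaling, probe choice, dim genes, medians, line, overlap, threshold and each left-out array. Promoter sequences are from RefSeq (GRCm38.p6). Figures were drawn with matplotlib 3.10.9.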

Additional observations from a re-analysis of the deposited data

Results flagged for a closer look

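Of 69 results examined among the fat-rich arrays, 2 had 1 array far from the other 4. Tmem45b was 12.64 in Lgr5 tumor 2 and 12.37 to 12.43 in the others. Car12 was 6.35 in Lgr5 tumor 7 and 5.96 to 6.04 in the others. Chance gives such a gap in about 1 in 20 groups of 5 arrays, and both gaps are small beside the differences of 5.05 and -4.89 from the non-squamous arrays.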

How the results depend on the processing

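Over the alternatives run, 0 genes called higher or lower changed direction; among 163 named genes, 5 that were not called (Des, AI506816, Lgr5, H2-Eb1 and Gdpd3) and among 32 lists 1 (macrophage, median 0.05) changed sign under at least 1 setting. Of the values, 2420 of 2438 for genes and 459 of 480 for lists stayed within the spread between arrays. The counts of 695 higher and 767 lower genes became 205 and 149 when a difference of at least 2 was required. Under the other settings they ranged from 664 to 876 and from 718 to 918. Leaving out each fat-rich array gave 682 to 765 higher and 742 to 879 lower genes, and leaving out K8 tumor 7 and Lgr5 tumors 1 and 4, an alternative chosen after seeing the data, gave 876 and 916. The line comparison called 0 genes, but 6 with all 25 arrays in 1 fit, 333 with array weights, 20 without K8 tumor 7 and 0 to 37 when Lgr5-titled arrays were left out in turn; the cause was not tested. Same-numbered tumors of the lines did not vary together (correlations of -0.255, 0.163, -0.243 and 0.337 for numbers 1, 3, 4 and 5; no array correlated best with its own number). Comparing only Lgr5 tumors 2, 6, 7 and 8 of the fat-rich set with the K8 tumors of the same numbers, without pairing, gave 754 higher and 872 lower genes. In the line comparison, with the number as a replicate block, 0 genes were called. Background correction could not be varied, and genes near the low end of the scale have differences that may be understated.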
